A study of Mus musculus with 6 samples.

Results

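The genes described here are the matrix metalloproteinases (MMPs), the ADAM and ADAMTS proteinases and the tissue inhibitors of metalloproteinases (TIMPs), measured by RNA-seq in immortalized mouse podocytes. Members were taken by name: every protein-coding gene of GENCODE M21 in the count table whose symbol starts with Mmp, Adam or Adamts followed by its number, or is Timp1 to Timp4, the ADAMTS-like genes (Adamtsl) included. This gave 83 genes of 57132 identifiers, with 22 in the MMP, 33 in the ADAM, 24 in the ADAMTS and 4 in the TIMP family. No measured value entered the rule by name, but this group of genes was chosen with earlier results of these data known.

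The WT group was the IMWT line (genotype WT-Col4a3+/+) and the AS group the IMAS line (genotype Col4a3-/-, a model of Alport syndrome), with 3 samples each. Both lines came from kidneys of male mice aged 8 weeks, per the labels, and neither received a treatment. The labels give growth at 33 °C in DMEM/F12 with 20 U/mL interferon gamma and 14 days of differentiation at 37 °C. The study's methods say that both lines carry the H-2kb-tsA58 transgene, through which interferon gamma and the lower temperature keep cells dividing, and they state another medium, another dose and another length of differentiation. Each genotype is 1 cell line, so that the effect of Col4a3 cannot be told apart from other differences between the lines. The samples are labelled set 1 to 3 without a statement that they are separate cultures, so the p-values measure the spread between these samples, which may be technical.

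Total counts were between 45417221 and 54290968 per sample. Correlations of log2 CPM (counts per gene scaled to the library size) between samples were between 0.993 and 0.996 within a genotype and between 0.968 and 0.972 across genotypes. Col4a3, the collagen IV chain deleted in AS, was at 938, 1052 and 1272 CPM in WT and at 62.4, 61.2 and 82.9 CPM in AS podocytes, so it was low but still counted in the AS line. Of 8 podocyte markers, Tcf21 had no count in any sample, Nphs1 (nephrin) was below 0.474 CPM throughout, and Wt1 was between 15.3 and 25.8 CPM in WT and between 1.44 and 3.14 CPM in AS samples. The summed CPM of these 8 markers was 916 to 1033 in WT and 620.3 to 683 in AS, most of it from Synpo. Of the 6 tested, 5 were lower and 1 higher (Lmx1b), beside 19.6% lower and 20.4% higher among all genes tested. The part of this marker difference in the results that follow was not tested, and in bulk RNA fewer cells of a type and less RNA per cell cannot be told apart.

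MMPs are zinc-dependent endopeptidases that cut collagens and other matrix proteins, either secreted or held at the cell surface (the membrane-type MMPs). ADAMs are membrane-anchored relatives that release the outer parts of receptors, adhesion molecules and growth factors. ADAMTS proteins are secreted and bind matrix through thrombospondin repeats; the ADAMTS-like proteins keep these repeats and lack the proteinase domain. TIMPs bind the active site and block it. In the glomerulus these enzymes and inhibitors act on the basement membrane that podocytes help to build, which contains the collagen IV chain encoded by Col4a3.

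The 120 bases before the transcription start are shown for 5 members because they represent both ends of the data: Mmp13, Mmp3 and Mmp10, neighbours on chromosome 9 that were nearly silent in both lines, Mmp14, the second highest MMP per length, and Adamts2, which had the largest difference. These 5 were chosen after their values were seen. The sequences are from RefSeq (GRCm38.p6), 5′ to 3′ on the strand of the gene, with capitals marking the letters TGAGTCA (the AP-1 motif), TATAAA (the TATA box) and GGGCGG (the GC box) on either strand.
Mmp13, chr9:7272394-7272513, plus strand: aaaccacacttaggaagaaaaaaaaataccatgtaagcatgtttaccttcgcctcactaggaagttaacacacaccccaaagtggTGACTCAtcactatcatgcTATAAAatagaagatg
Mmp3, chr9:7445702-7445821, plus strand: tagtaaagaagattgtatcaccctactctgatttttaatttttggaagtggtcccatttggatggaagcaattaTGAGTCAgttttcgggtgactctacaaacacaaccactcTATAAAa
Mmp10, chr9:7502222-7502341, plus strand: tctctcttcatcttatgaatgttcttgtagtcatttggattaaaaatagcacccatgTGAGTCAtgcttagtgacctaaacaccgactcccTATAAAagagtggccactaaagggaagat
Mmp14, chr14:54431478-54431597, plus strand: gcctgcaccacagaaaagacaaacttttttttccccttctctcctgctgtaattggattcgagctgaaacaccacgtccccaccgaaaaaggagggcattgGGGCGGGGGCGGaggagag
Adamts2, chr11:50601965-50602084, plus strand: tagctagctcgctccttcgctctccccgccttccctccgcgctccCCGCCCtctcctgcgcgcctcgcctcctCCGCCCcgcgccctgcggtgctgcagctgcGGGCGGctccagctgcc

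RefSeq promoter windows were found for 52 of the 83 members (57 windows), and the 250 bases upstream of each start were searched for the same letters on both strands. TGAGTCA was in 4.46%, TATAAA in 12.4% and GGGCGG in 32.7% of all 32851 windows. Of the 9 MMP genes on chromosome 9, each with a window, 6 had the AP-1 letters, 6 had the TATA letters and 0 had the GC box letters in at least 1 window. Of the 6 MMP genes elsewhere that had a window and enough counts to be tested, 0 had the AP-1 letters, 0 had the TATA letters and 5 had the GC box letters. Among MMP genes elsewhere with a window but too few counts to be tested, Mmp21 had the TATA letters. Mmp25, also not tested, had the GC box letters. The chromosome 9 genes are a cluster of neighbours of related sequence, so they are not independent, and a match describes letters and not a bound factor.

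This cluster was close to silent in both lines. Its 9 genes (Mmp1b, Mmp3, Mmp7, Mmp8, Mmp10, Mmp12, Mmp13, Mmp20 and Mmp27) had together between 15 and 51 counts per sample, and no gene of it reached more than 0.418 CPM in any sample. Mmp13, a collagenase, was at 0.0592, 0.214 and 0.130 CPM in WT and at 0.0222, 0.0195 and 0.164 CPM in AS. Mmp10, a stromelysin, was at 0.0197, 0.128 and 0.0867 CPM in WT and at 0.0444, 0.0389 and 0.0182 CPM in AS, so the groups overlapped for both genes. Mmp3 had 0 counts in WT and 3 counts in AS, all in 1 AS sample. Mmp12, an elastase of macrophages, was the 1 gene of the cluster with enough counts to be tested and had a log2 fold change of -1.0001 (standard error (SE) 0.88, adjusted p = 0.406, edgeR). Mmp27 was at 0.0394, 0.0214 and 0 CPM in WT and at 0.133, 0.156 and 0.109 CPM in AS, which did not overlap but rest on too few counts to be tested.

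Over all 83 members, 17 had no count in any sample, 16 had too few counts to be tested, and 50 were tested. The 17 were 12 ADAM genes (Adam6a, Adam6b, Adam7, Adam18, Adam20, Adam24, Adam25, Adam26a, Adam26b, Adam29, Adam34 and Adam39, many of them known from the testis), Mmp1b, Mmp7, Mmp21, Adamts19 and Timp4. A total of 0 counts over the 6 samples allows a level of up to 0.0102 CPM (3 counts), for counting error only. Adamts20, which cuts versican, had 27 counts over the WT samples (0.118, 0.320 and 0.130 CPM) and 0 in AS. The WT mean was 9.57 times a floor of 3 counts over the AS group. This floor allows for counting error in AS only, and not for error in the WT mean or for the spread between samples. Adamts20 did not pass the filter on low counts and was called only in the fit without a filter. Adam28, Adam1b and Mmp20 had 1 to 4 counts in 1 line and 0 in the other.

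Of the 50 tested members, 37 (74.0%) passed an adjusted p of 0.05 in the edgeR quasi-likelihood test, beside 40.1% of all 16263 genes tested. In AS podocytes 24 members (48.0%) were higher, beside 20.4% of all genes, and 13 (26.0%) were lower, beside 19.6% of all genes. A fold of more than 2 was reached by 13 called members (26.0%), beside 11.2% of all genes. The 3 AS samples did not overlap with the 3 WT samples in 37 members (74.0%), beside 52.3% of all genes, and these were the same 37 genes. Members had a median log2 fold change of 0.34 and a median size of change of 0.73, against 0.0061 and 0.28 over all genes. Among the 44 tested members with a mean of at least 1 CPM, a fit on genes at that level called 34 (77.3%), against 46.1% of all genes at that level. These shares describe the members, and no test of the list was run.

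**Figure D1:**
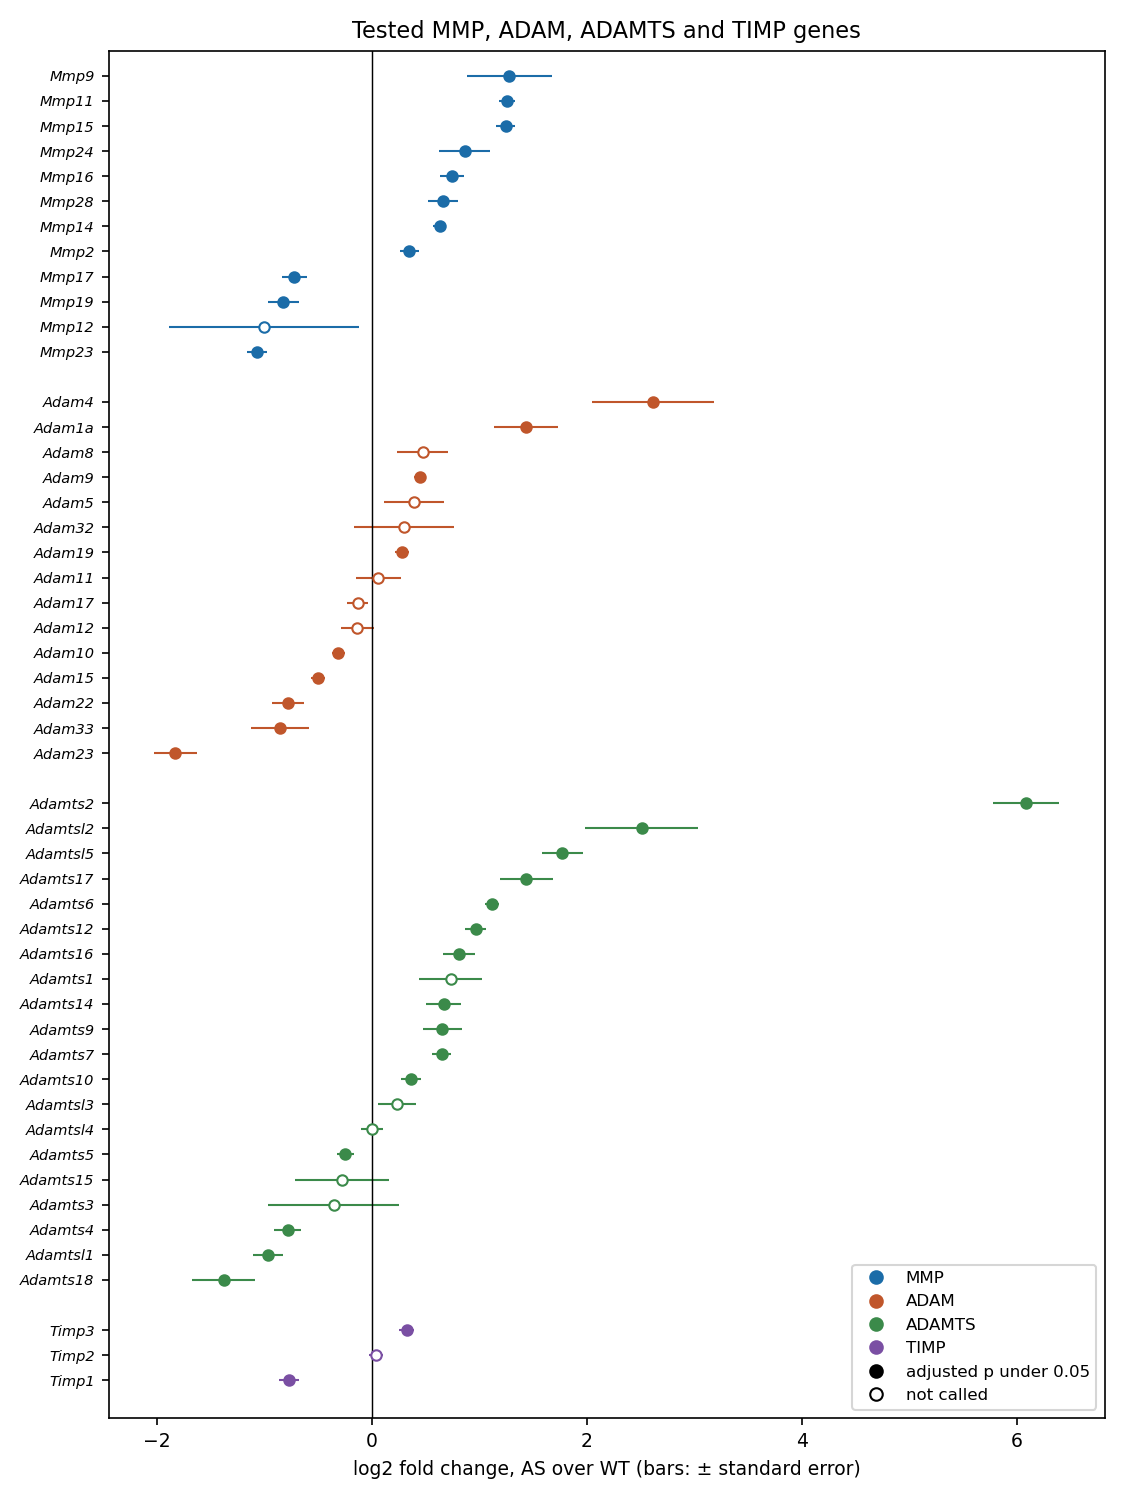
Log2 fold change of AS over WT podocytes (horizontal axis, bars ± standard error) for the 50 tested members, sorted within each family. Filled points have an adjusted p under 0.05 and open points do not. Most filled MMP and ADAMTS points lie right of 0, ADAM points lie on both sides, and Adamts2 stands apart at 6.09.

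Among the MMPs, 12 of 22 were tested, and 8 (66.7%) rose and 3 (25.0%) fell in AS podocytes, beside 20.4% and 19.6% of all genes. Mmp12 was the 1 that did not pass. The MMP sum was between 1197 and 1396 CPM in WT and between 1633 and 1839 CPM in AS samples. The gelatinase Mmp2 made up 59.1% to 66.6% of it in each sample and the membrane-type Mmp14 21% to 25.0%. Per kb of exon, the order of the leading MMPs was Mmp2 (278 CPM per kb over all samples), Mmp14 (59.0), Mmp11 (20.97) and Mmp15 (15.1).

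Mmp2, which cuts denatured collagen and collagen IV, was at 929.8, 778 and 765 CPM in WT and at 1123, 966 and 1063 CPM in AS podocytes. All AS samples lay above all WT samples, but the highest WT and the lowest AS sample were close. The log2 fold change was 0.35 (SE 0.09, adjusted p = 0.0136, edgeR). It lost the call without WT replicate 2 (adjusted p = 0.0509), without WT replicate 3 (0.0561) or without AS replicate 1 (0.0620). Mmp2 is on chromosome 8, where the median gene was 0.31 higher in AS on the log2 scale, and relative to that median Mmp2 was at 0.04.

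Mmp14, the membrane-type MMP known to activate pro-MMP2, was at 293, 266 and 269 CPM in WT and at 443, 408 and 431 CPM in AS. The groups were far apart relative to the spread within each, with a log2 fold change of 0.63 (SE 0.06, adjusted p = 6.31e-05, edgeR) that was called in every alternative with a test. Mmp9, the other gelatinase, was low, at 0.690, 1.60 and 2.73 CPM in WT and at 3.33, 3.70 and 5.11 CPM in AS. The WT samples spread 3.96-fold. The log2 fold change of Mmp9 was 1.28 (SE 0.40, adjusted p = 0.0281), and it was not called without WT replicate 2 (0.0734), AS replicate 2 (0.0536) or AS replicate 3 (0.110).

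The clearest increases among the MMPs relative to their SE were in Mmp11 and Mmp15. Mmp11 (stromelysin-3, which is activated inside the cell by furin) rose from 31.6, 35.7 and 35.9 CPM in WT to 77.1, 81.1 and 88.2 CPM in AS, a log2 fold change of 1.26 (SE 0.07, adjusted p = 2.21e-06). Mmp15, a membrane-type MMP, rose from 49.0, 53.2 and 42.7 CPM to 122, 106 and 116 CPM, a log2 fold change of 1.25 (SE 0.09, adjusted p = 6.42e-06). They lie on chromosomes 10 and 8, and with the chromosome medians removed they were at 0.95 and 0.94. Of the other membrane-type genes, Mmp16 rose by 0.74 and Mmp24 by 0.87, Mmp17, which is anchored by a lipid, fell by 0.72, and Mmp25 was too low to test. Mmp24, at 1.10 to 1.67 CPM in WT and 2.16 to 2.89 CPM in AS, was not called without WT replicate 3 or AS replicate 3.

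Mmp28 (epilysin) rose by 0.66 on the log2 scale. The decreases were in Mmp23, Mmp19 and Mmp17. Mmp23, a type II membrane proteinase, fell from 32.6, 30.4 and 30.6 CPM in WT to 14.4, 13.3 and 16.95 CPM in AS, a log2 fold change of -1.07 (SE 0.09, adjusted p = 2.84e-05, edgeR). Mmp19, a basement membrane proteinase, had 22.4, 16.2 and 16.5 CPM in WT against 10.2, 9.34 and 11.6 CPM in AS. Its log2 fold change was -0.82 (SE 0.14), although it lies on chromosome 10, whose median gene was higher in AS. Of its exonic bases 28.3% overlap genes on the other strand, and the strand setting of the counting is not given in the sources used here.

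**Figure D2:**
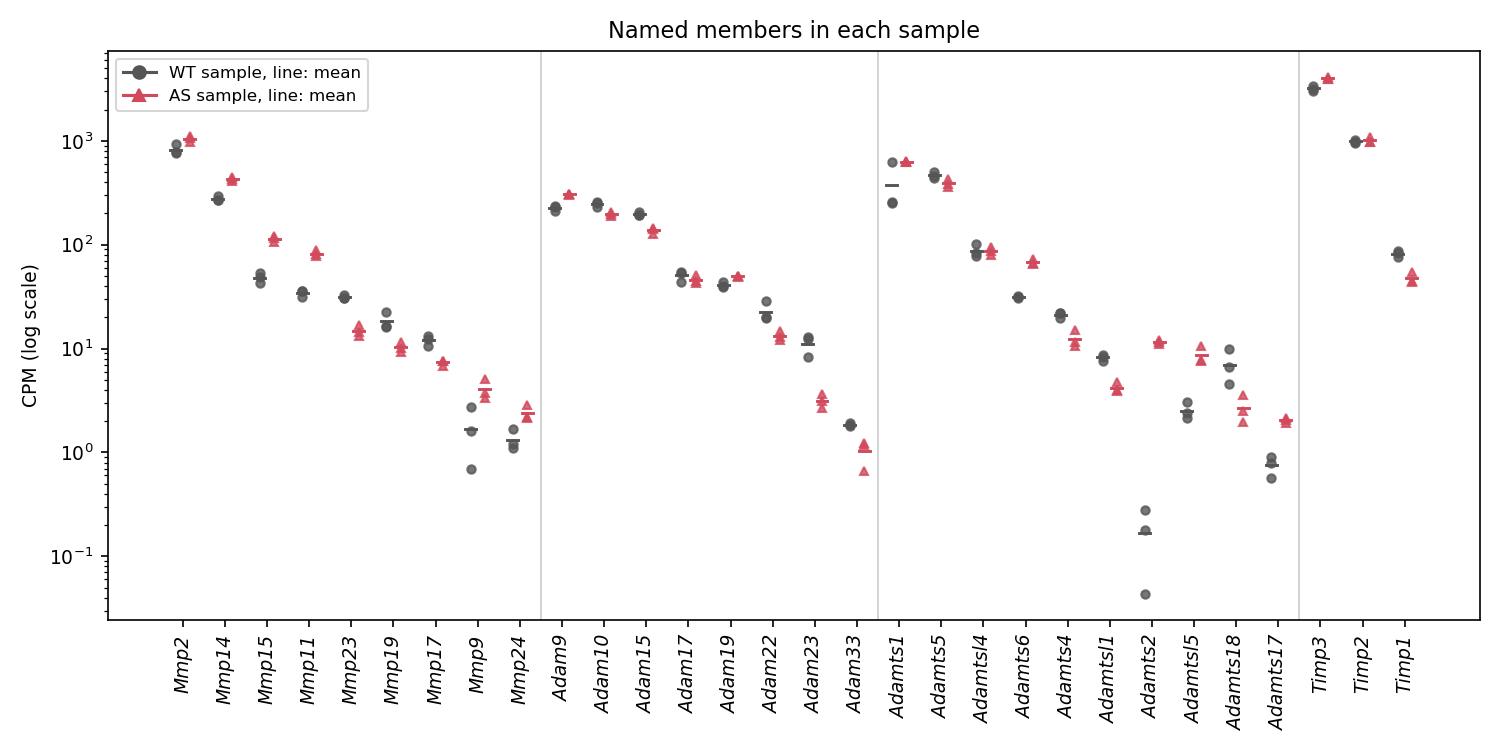
CPM on a log axis for each named member with enough counts to be tested, in each WT sample (grey circles) and AS sample (red triangles), with short lines at the group means and vertical lines between the families. Timp3 and Mmp2 are highest in their families, Adamts2 is at most 0.278 CPM in the WT samples and between 10.99 and 12.1 CPM in AS, and 1 WT sample of Adamts1 lies among the AS samples.

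The ADAM family summed to between 820 and 861 CPM in WT and between 792 and 828 CPM in AS, with ranges that overlapped. Adam9 was 24.8% to 28.5% of the sum in WT and 37.3% to 38.9% in AS samples. Adam10 was 28.3% to 30.1% in WT and 23.9% to 25.1% in AS. Per kb of exon, Adam9 was at 54.7 ± 2.88 and Adam10 at 50.2 ± 2.65 CPM per kb in WT (SD, n = 3 each), and their samples overlapped, whereas in AS they were at 74.6 ± 1.15 and 40.5 ± 1.75 (SD, n = 3 each) and did not. Of 15 tested ADAMs, 4 (26.7%) rose and 5 (33.3%) fell, beside 20.4% and 19.6% of all genes, and 6 did not pass.

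Adam9, a shedding enzyme of epithelial cells, was at 212, 230.1 and 234 CPM in WT and at 309, 310.3 and 302 CPM in AS. Its log2 fold change was 0.45 (SE 0.06, adjusted p = 0.000312, edgeR) and 0.14 relative to the median of chromosome 8. Adam10, the enzyme that cuts Notch receptors and cadherins, was lower in AS, at 207, 190.2 and 199 CPM against 256, 252 and 232 CPM, a log2 fold change of -0.31 (SE 0.06, adjusted p = 0.00345). Adam17, which releases TNF and the EGF receptor ligands, was at 54.4, 53.8 and 43.5 CPM in WT and at 50.9, 44.96 and 42.7 CPM in AS. The groups overlapped and no difference was called for Adam17, with a log2 fold change of -0.13 (SE 0.10, 95% interval -0.35 to 0.09, adjusted p = 0.322).

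Adam15 fell from 193, 205 and 192 CPM to 146, 142 and 128 CPM, a log2 fold change of -0.50 (SE 0.06, adjusted p = 0.000278, edgeR). Of its exonic bases 20.6% overlap a gene on the other strand. Adam19, with 10.1% of such overlap, rose by 0.28 (SE 0.06). Adam22 and Adam23, known as proteins without an active site that act in adhesion in the brain, both fell: Adam22 by 0.78, and Adam23 from 8.28, 12.3 and 12.96 CPM to 3.11, 3.68 and 2.67 CPM, a log2 fold change of -1.83 (SE 0.20, adjusted p = 9.34e-05). Adam11, of the same kind, was not called (log2 fold change 0.06). Adam33 fell by 0.85 at 0.661 to 1.90 CPM and was not called without WT replicate 2, WT replicate 3 or AS replicate 2. Adam4 and Adam1a, known from germ cells, were called higher at no more than 0.872 and 1.60 CPM, and 63.7% of the exonic bases of Adam1a lie in other genes of the same strand, so that its value is uncertain.

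The ADAMTS family, with 20 of 24 genes tested, had 11 (55.0%) higher and 4 (20.0%) lower, beside 20.4% and 19.6% of all genes. The other 5 did not pass. Adamts2, the main proteinase that removes the amino-terminal propeptide of fibrillar procollagens, had the largest change of all members. It was at 0.178, 0.278 and 0.0433 CPM in WT and at 11.5, 10.99 and 12.1 CPM in AS podocytes. Each AS sample was far above each WT sample, with a fitted log2 fold change of 6.09 (SE 0.31, adjusted p = 7.31e-07, edgeR) that rests on few WT counts. Of the related procollagen proteinases, Adamts14 rose from 2.74, 3.63 and 3.25 CPM to 5.24, 4.53 and 5.54 CPM, a log2 fold change of 0.67 (SE 0.16). Adamts3 was at 0.368 to 1.50 CPM in WT and 0.233 to 0.999 CPM in AS and was not called (log2 fold change -0.35, SE 0.61).

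Adamts1, Adamts5 and the ADAMTS-like gene Adamtsl4 were highest per kb, at 94.5, 39.7 and 20.8 CPM per kb over all samples. Adamts1, which cuts proteoglycans such as versican, was at 621, 256 and 253 CPM in WT and at 619.5, 619 and 639 CPM in AS. WT replicate 1 was level with the AS samples, whereas the other WT samples lay far below them. The log2 fold change was 0.73 (SE 0.30) and was not called (adjusted p = 0.0769, edgeR). Without WT replicate 1 it was 1.30 (adjusted p = 2.59e-08), and it was 0.51 to 0.73 without any 1 of the other samples. No value here shows which WT level is typical of the line.

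Adamts5, an aggrecanase, was at 440.0, 459 and 497 CPM in WT and at 387, 429.9 and 360.2 CPM in AS. It was called lower by a small margin (log2 fold change -0.25, SE 0.08, adjusted p = 0.0335), and the call was lost without WT replicate 2 (0.0632), WT replicate 3 (0.119), AS replicate 1 (0.0869) or AS replicate 3 (0.133). Adamts4, the other main aggrecanase, fell from 22.1, 19.5 and 22.2 CPM to 10.5, 11.5 and 15.0 CPM, a log2 fold change of -0.78 (SE 0.13, adjusted p = 0.00119). Among the proteoglycan-cleaving genes Adamts9 rose by 0.66 (not called without AS replicate 1 or AS replicate 3). Adamts15 was not called and spread 4.93-fold within WT, from 1.08 to 5.35 CPM. Adamts8, at 0.158, 0.363 and 0.282 CPM in WT and 0.0444, 0.0778 and 0.0909 CPM in AS, was too low to be tested and was called only without WT replicate 1.

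In the rest of the family, 6 of 7 tested genes rose and 1 fell, beside 20.4% and 19.6% of all genes. Adamts6, which acts on fibrillin-rich matrix, was at 30.5, 31.6 and 31.9 CPM in WT and at 66.6, 64.6 and 73.4 CPM in AS, a log2 fold change of 1.12 (SE 0.07, adjusted p = 2.02e-06, edgeR). Adamts10, its close relative, rose by 0.37 and lost the call without AS replicate 2 or AS replicate 3. Adamts12 rose by 0.97, and its relative Adamts7, which cuts the cartilage protein COMP, rose by 0.65. Adamts16 rose by 0.81 and Adamts17 by 1.44, the latter between 0.564 and 2.14 CPM. Adamts18, a relative of Adamts16, went the other way, from 9.82, 4.59 and 6.59 CPM in WT to 1.95, 2.53 and 3.56 CPM in AS, a log2 fold change of -1.38 (SE 0.30, adjusted p = 0.00500).

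Of the 5 ADAMTS-like genes, Adamtsl5 rose from 2.17, 3.03 and 2.38 CPM to 7.57, 10.5 and 7.81 CPM, a log2 fold change of 1.77 (SE 0.19, adjusted p = 8.36e-05, edgeR). Adamtsl2 also rose, from at most 0.217 CPM to between 0.467 and 1.16 CPM. Adamtsl1 fell by 0.96 (SE 0.14). Adamtsl4, the most abundant, was at 101, 83.4 and 77.4 CPM in WT and at 94.9, 79.8 and 87.0 CPM in AS, a log2 fold change of 0.00 with a 95% interval of -0.22 to 0.22.

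The TIMPs were the most abundant family, at 4094 to 4463 CPM in WT and 4934 to 5270 CPM in AS samples, and the inhibitors did not move together. Timp3, the matrix-bound inhibitor that also blocks ADAM10, ADAM17 and several ADAMTS enzymes, was 74.3% to 75.3% of the sum in WT and 78.7% to 79.2% in AS. It was at 3348, 3044 and 3187 CPM in WT and at 4148, 3906.5 and 3941 CPM in AS. All AS samples were higher, with a log2 fold change of 0.32 (SE 0.07, adjusted p = 0.00586, edgeR). Timp3 lies on chromosome 10, and relative to the median of that chromosome its log2 fold change was 0.02. Of its exonic bases 21.3% overlap Syn3 on the other strand.

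Timp2, which inhibits MMP2 and also takes part in its activation by MMP14, was at 1028, 975 and 962 CPM in WT and at 1077, 984 and 984 CPM in AS. The groups overlapped, with a log2 fold change of 0.04 (SE 0.07, 95% interval -0.11 to 0.19). Timp1, the inducible secreted inhibitor encoded on the X chromosome, fell from 86.3, 75.5 and 83.6 CPM to 45.1, 43.8 and 54.6 CPM. Its log2 fold change was -0.77 (SE 0.09, adjusted p = 0.000164, edgeR), and it was called in every alternative with a test. Timp4 had no count. Per kb the order was Timp3 (442 CPM per kb), Timp2 (257) and Timp1 (73.0).

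**Figure D3:**
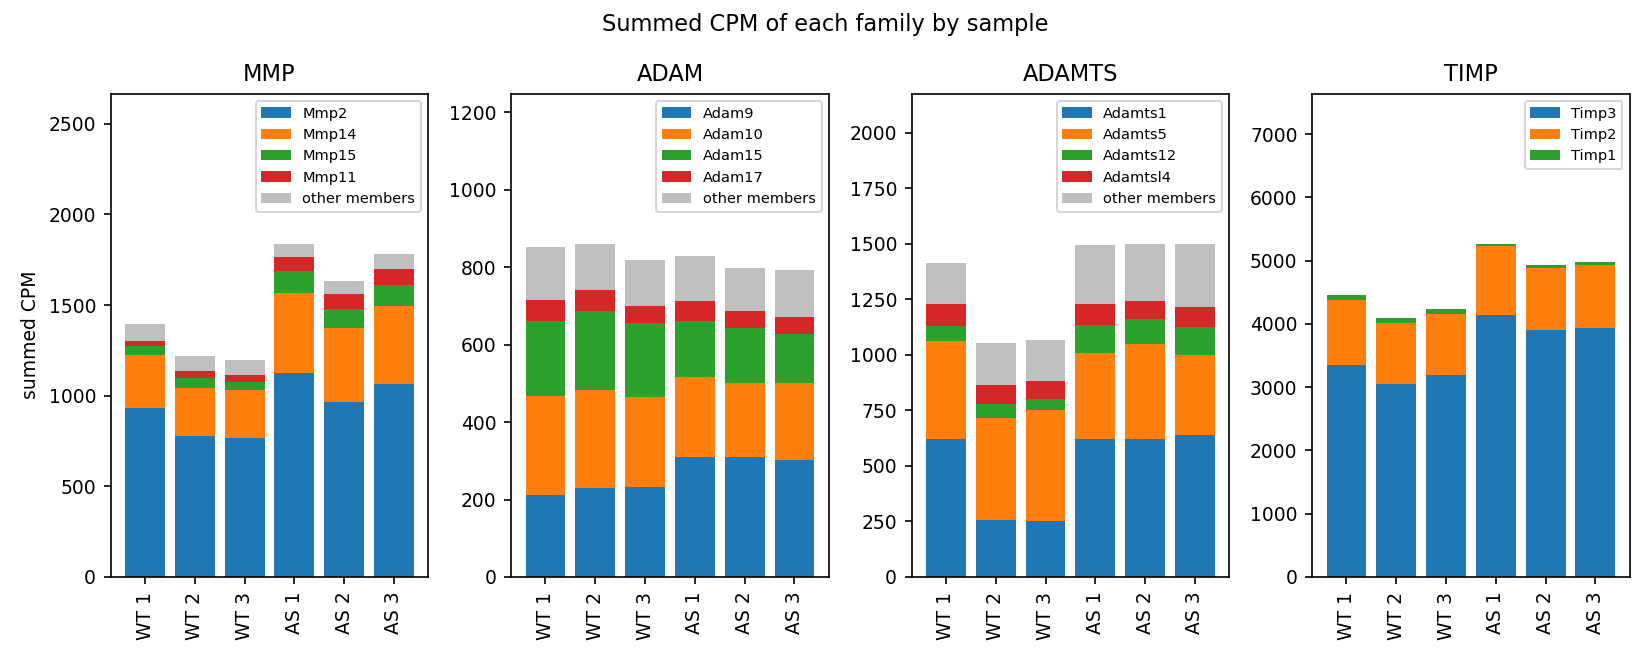
Summed CPM of each family (vertical axis, from 0) in the 3 WT and 3 AS samples, with the most abundant members in colour and the remaining members in grey. Mmp2 and Timp3 fill most of their families, the Adam9 segment is larger in the AS samples, and the Adamts1 segment of WT sample 1 is as large as in the AS samples.

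Whole chromosomes differed in level between the lines, and this touched some members more than others. Chromosome medians of the log2 fold change were taken over genes for which the log2 of the mean CPM exceeded 2. Less the median of those genes together, the chromosome median was 0.31 on chromosomes 8 and 10, 0.19 on 5 and 15, 0.18 on 19, -0.21 on 6 and -0.18 on 4. The called members on chromosome 8 were 3 higher and 1 lower, and on chromosome 10 they were 4 higher and 1 lower. Over all chromosomes 24 members were higher and 13 lower, and 20.4% and 19.6% of all genes. Called genes were not counted by chromosome, so these few members do not show a lean particular to chromosomes 8 and 10. After the median of its chromosome was subtracted, 0 of the 37 called members turned in sign, and 2 (Mmp2 and Timp3) came within 1 SE of 0. These 2 are the most abundant MMP and TIMP. Mmp14 (chromosome 14), Timp1 (X), Adamts2 (11) and Adamts6 (13) were at 0.67, -0.72, 6.13 and 1.13 after the subtraction, little moved. DNA was not measured.

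**Figure D4:**
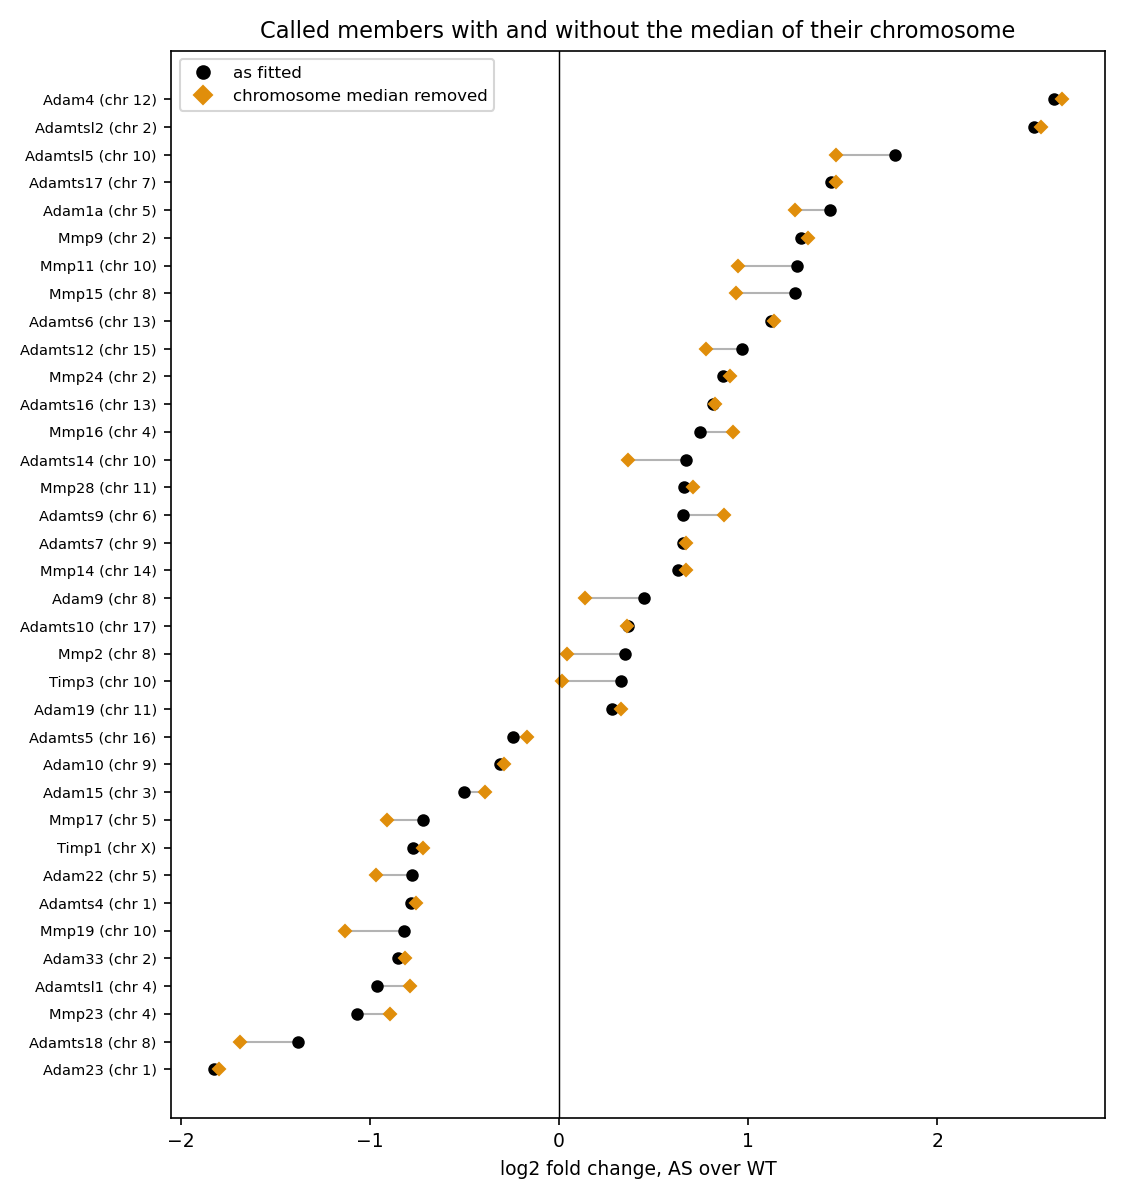
Log2 fold change of AS over WT (horizontal axis) for the called members other than Adamts2, as fitted (black circles) and after subtraction of the median of the chromosome named beside each gene (orange diamonds). Mmp2 and Timp3 move to about 0, and Mmp11 and Mmp15 stay near 0.9.

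Genes that act around these proteinases were followed in fixed lists. Of 20 regulators, 19 were tested, 5 rose and 8 fell (median log2 fold change 0.07), beside 20.4% higher and 19.6% lower among all genes tested. Plau, the urokinase that generates plasmin, fell from 45.7, 36.0 and 30.9 CPM to 9.79, 9.14 and 8.14 CPM, a log2 fold change of -2.06 (SE 0.14, adjusted p = 5.71e-06, edgeR). Serpine2, an inhibitor of serine proteinases, rose by 0.93. Rhbdf2, the iRhom partner that carries ADAM17 to the surface, rose by 0.64. Tspan33, a tetraspanin partner of ADAM10, fell by 1.58 at 1.15 to 4.31 CPM.

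Of 17 proteins known to be shed by ADAMs, 15 were tested, 8 rose and 5 fell (median 0.25), beside the same 20.4% and 19.6% of all genes. Tnfrsf1b, TNF receptor 2, rose from 0.256, 0.491 and 1.11 CPM to 9.97, 10.8 and 8.99 CPM, a log2 fold change of 4.02 (SE 0.36, adjusted p = 3.05e-05, edgeR), while Tnfrsf1a, TNF receptor 1, fell by 0.38. The EGF family ligands did not move together: Nrg1, Ereg and Tgfa rose by 0.64, 1.10 and 0.95, Btc fell by 0.73 at 0.739 to 1.37 CPM, Hbegf was not called (log2 fold change -0.47, adjusted p = 0.0625, edgeR), and Areg was too low to test. These are RNA levels, and shedding was not measured.

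Of 10 matrix proteins cut by ADAMTS enzymes, 8 were tested, 3 rose and 2 fell (median 0.19), again beside 20.4% and 19.6% of all genes. The fibrillar collagen genes, whose products are the substrates of ADAMTS2, moved in opposite directions. Col1a1 rose from 19.5, 26.9 and 26.6 CPM to 430.1, 409.6 and 591 CPM, and Col3a1 from 9.43, 11.02 and 7.87 CPM to 184, 174 and 235 CPM, log2 fold changes of 4.29 (SE 0.18, adjusted p = 1.87e-07, edgeR) and 4.39 (SE 0.15, adjusted p = 6.15e-08). Col1a2, the partner chain of Col1a1, fell from 37.7, 23.5 and 30.7 CPM to 0.932, 0.739 and 1.33 CPM, a log2 fold change of -4.92 (SE 0.24). Fbn2 (fibrillin-2) fell by 4.27.

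Markers of other cells were measured beside these genes. Of 6 mesangial and fibroblast markers 2 fell (Pdgfrb and Thy1), beside 19.6% of all genes, and the other 4 did not pass the test. Their sum, mostly Acta2, was 5749 to 7899 CPM in WT and 6413 to 7539 CPM in AS. The 5 endothelial markers summed to at most 1.35 CPM in WT and 0.603 CPM in AS, with Kdr lower. Of 8 tubular and parietal markers, 4 were tested, with adjusted p between 0.105 and 0.601 (edgeR), and the sum was 462 to 595 CPM in WT and 416 to 536 CPM in AS. Most of it came from Lrp2 (246 to 307 CPM in WT, 196 to 307 CPM in AS) and Pax8 (194 to 272 and 189.8 to 208 CPM). Both were above the podocyte markers Wt1 and Nphs1 and below Synpo (758 to 847 CPM in WT, 497 to 558 CPM in AS). Of the same tubular and parietal list, Cdh1 (up to 0.433 CPM), Epcam (up to 0.107 CPM) and Slc34a1 (up to 0.0217 CPM) were near 0. Umod and Aqp2 had no count. The 5 leukocyte markers summed to 11.2 to 15.0 CPM in WT and 5.11 to 7.02 CPM in AS, where Csf1r fell and Adgre1 had no count. The part of these markers in the differences of the members was not tested.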

How the data were processed

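RNA was sequenced from 3 WT and 3 AS samples with a poly(A) mRNA kit (100 ng input, 15 PCR cycles, per the labels). The authors deposited raw counts of reads per gene, without normalization. The submitters' processing notes name FastQC, Trim Galore, STAR, edgeR and the mm39 build; which tool counted the reads, whether by strand and on which annotation, is not given in the sources used here. Identifiers were matched without their version to GENCODE M21 (51880 of 57132 matched), and 28476 had no count. Exon lengths and overlaps are from M21. CPM used TMM-scaled library sizes. Genes kept by filterByExpr (minimum count 10, minimum total 15) were fitted in R 4.3.3 with edgeR 4.0.16 (quasi-likelihood, TMM) with Benjamini-Hochberg adjustment over all 16263 genes, on 45417221 to 54290968 counts per sample. Alternatives were DESeq2 1.42.0, limma-voom 3.58.1, other scalings and filters, a replicate block, leaving out each sample, and subtracting chromosome medians. The edgeR test gives no SE, so each SE was derived as the size of the log2 fold change over the square root of its F statistic. The 95% intervals were built from these SEs with a t distribution on the degrees of freedom of the test. Exact permutation of 3 against 3 samples cannot go below p = 0.1 and was not used. No library was a duplicate (chi-square per degree of freedom between 9.78 and 49.9 within a genotype).

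Named members were the TIMPs, Mmp2, Mmp9, Mmp14, Adam10, Adam17 and Adamts1, and in each of the MMP, ADAM and ADAMTS families up to 4 called members with the largest increases and 4 with the largest decreases at a mean of at least 1 CPM and the 3 highest per kb; from each list of other pathway genes up to 4 with the smallest adjusted p were named. Further members (such as Mmp28, Adamts3, Adamts20 and Adam4) were named after their values were seen, to account for each group. Mmp1a, a polymorphic pseudogene in M21, was left out, and some genes of the marker lists are not reported here. Members and lists were chosen with earlier results of these data known. The test was checked on simulated counts, where false calls came somewhat above the nominal rate on average and the limit set for recovery was lowered after its value was seen.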

Additional observations from a re-analysis of the deposited data

How the results depend on the processing

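Under the alternatives with a test, 32 to 39 of the members were called, against 37. DESeq2 and RLE scaling called 37 members, the same ones; limma-voom called 38, gaining Adamts1; scaling by library size alone called 36, without Adamts5; and the fit without a filter called 39, gaining Adamts1 and Adamts20. In that fit the gene-wise spread was pooled much more strongly (81.7 against 5.40 prior degrees of freedom), so its p-values for genes with unequal replicates, such as Adamts1 (2.66e-07), are small by construction. With a mean CPM of at least 1, 34 were called, since Adam1a, Adam4 and Adamtsl2 were not tested.

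Samples of equal number correlated in their deviations at 0.284, 0.160 and 0.0801. Of the 6 samples, 5 correlated best with their own number, a hint of shared sets from the data. The labels do not say what a set shares, and no limit for such correlations was set in the design. The main fit used genotype alone and did not treat the samples as paired, and a replicate block was run as an alternative. With the replicate block, 39 members were called, gaining Adam8 and Adamts1 (log2 fold change 0.87, adjusted p = 0.0130). It called 7066 (43.4%) of all genes, against 6517 (40.1%) without the block.

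Without 1 sample, 32 to 39 members were called, the fewest without AS replicate 3 and the most without WT replicate 1. Of all genes tested, 30.7% and 40.4% were called in these fits, and 32.4% to 33.3% without any 1 of the other samples. Among the members, a direction turned in 7 genes, none called in any alternative. Adamtsl4 was at -0.0077 with RLE scaling, -0.0076 with DESeq2, -0.0056 with the filter on mean CPM, and between -0.079 and 0.12 without 1 sample, and Timp2 was between -0.014 and 0.067, Adam11 between -0.048 and 0.12, Adam12 between -0.26 and 0.075, Adam32 between -0.13 and 0.55, Adamts3 between -0.85 and 0.50 and Adamts15 between -0.68 and 0.41 without 1 sample. Of 602 values of 43 named genes, 557 were unchanged, 16 lost and 4 gained the call, 18 moved in size and 7 turned. Unchanged means the same direction and side of the threshold in the alternatives with a test. Subtracting chromosome medians has no test, so its values were judged by whether they moved less than 1 SE (25 unchanged, 18 moved). With the longest transcript as length, Timp3 was at 762, Mmp14 at 109 and Adam15 at 42.8 CPM per kb. Depth limits the chromosome 9 MMPs and other genes of few counts.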

Other observations

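The spread between samples was uneven among the members. Over the 42 tested members with a mean of at least 1 CPM in each genotype, the highest sample was a median of 1.27 times the lowest in WT and 1.19 times in AS podocytes, and it was more than 1.5 times the lowest for 11 members in WT and 4 in AS. In WT the widest were Adamts15 (4.93-fold), Mmp9 (3.96-fold) and Adamts1 (2.46-fold). WT replicate 1 was the highest or the lowest WT sample for each of the 11 members in WT. It was the highest for Adamts15, Adamts1, Adamts18, Adamts9 and Adam12. For Mmp9, Adam5, Adam8, Adamtsl3, Adam23 and Mmp24 it was the lowest, so this sample did not deviate in 1 direction. Without it 40.4% of all genes tested were called, against 30.7% to 33.3% without any 1 of the other samples.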
